A study of Mus musculus with 6 samples.

Results

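Matrix metalloproteinases (MMP), the ADAMTS proteases, the ADAMTS-like proteins and the tissue inhibitors of metalloproteinases (TIMP) were examined in C2C12 cells, an established mouse myoblast line that can fuse into myotubes. Control cells, whose data columns name a vector (n = 3), were compared with cells of the genotype Msx1 overexpression (n = 3). Both groups were labelled as myoblasts of the C2C12 line. The labels give neither the construct that drives Msx1, whether the cells were clonal, nor whether they were growing or differentiating at harvest. Separate cultures are not stated either, and the spread that p-values rest on is therefore that of these libraries and may be technical. The members were all genes with the symbols Mmp, Adamts or Adamtsl plus a number and Timp1 to Timp4. This gave 51 of the 24809 genes in the table: 23 Mmp, 19 Adamts, 5 Adamtsl and 4 Timp genes.

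MMPs are zinc-dependent endopeptidases that cleave collagens, gelatin, laminins, growth factors and cell-surface proteins, and most are made as inactive pro-forms. ADAMTS proteases are secreted relatives with thrombospondin repeats that cleave proteoglycans, trim procollagens or act on microfibril components, while ADAMTS-like proteins share the repeats but lack the protease domain. TIMPs bind the active site of MMPs and of some ADAM and ADAMTS proteases. In muscle, these enzymes remodel the matrix around myofibres and satellite cells, and the gelatinase MMP2 is activated at the cell surface by the membrane-type enzyme MMP14 with TIMP2 as a bridge.

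Values are FPKM (fragment counts scaled to transcript length and to mapped fragments) summed over the RefSeq transcripts of a gene, and values per library are in the order of replicates 1, 2 and 3. Changes are differences in log2(FPKM + 1), Msx1 overexpression minus control, with the moderated standard error (SE) and Benjamini-Hochberg adjusted p of limma over the 12371 genes whose mean over the 6 libraries reached 0.5 FPKM. The log2(FPKM + 1) scale understates changes of low genes, so the ratio of group means is also given as a fold for called members, except where the control values were at or near 0. A gene was called higher or lower at an adjusted p under 0.05. Msx1 itself read 7.99, 7.13 and 7.54 FPKM in the control and 1004, 944 and 912 FPKM in the Msx1 libraries (log2 change 6.80, adjusted p = 1.02e-09). The exact two-sided permutation p was 0.1, and with 3 libraries in each group no smaller value is possible. The myoblast genes Myod1 (23.3 ± 0.924 and 21.4 ± 0.677 FPKM, mean ± SD, n = 3 each) and Cdh15 (9.92 ± 0.540 and 10.9 ± 0.458 FPKM) were present in both groups and not called. Des (140 ± 0.668 and 116 ± 4.89 FPKM), Pax7 (9.21 ± 0.573 and 11.4 ± 0.751 FPKM) and Myf5 (9.01 ± 0.396 and 1.64 ± 0.0968 FPKM) were also present, with Des and Myf5 called lower and Pax7 higher. Of 5 macrophage and neutrophil markers, Ptprc and Adgre1 were listed at 0 in all libraries, and the summed level was 2.84 to 3.63 FPKM in control and 1.13 to 1.44 FPKM in Msx1 libraries, most of it Cd68. The summed level of 4 endothelial markers was 0.220 to 0.269 and 0.523 to 0.878 FPKM. The summed level of 6 osteoblast and chondrocyte markers was 41.2 to 42.1 FPKM in control and 107 to 111 FPKM in Msx1 libraries. Alpl made up nearly all of this difference (0.609 ± 0.246 and 62.3 ± 2.14 FPKM). Bglap (3.40 ± 0.671 and 5.05 ± 0.552 FPKM) and Runx2 (14.6 ± 1.16 and 18.0 ± 0.722 FPKM) were also called higher. Sox9 (22.95 ± 0.235 and 23.4 ± 1.47 FPKM) was not called, and Sp7 and Acan were near 0. The part of these marker changes in the results below was not tested. In bulk RNA, fewer cells of a type and less RNA per cell cannot be told apart.

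Of the 51 members, 30 reached that mean and were tested, 8 were listed at 0 in all libraries, and 13 had low values that reached at most 0.579 FPKM in any library. Across all genes tested 22.0% were called higher and 32.4% lower, 54.4% in either direction (2718 higher and 4014 lower genes). With libraries scaled by median-of-ratios the split was 3321 higher and 3155 lower, and with equal totals without Msx1 it was 3503 higher and 2807 lower. Of the 30 tested members 15 were called higher, 8 lower and 7 were not called. Their median change was 0.19, beside -0.07 for all genes tested. Adamts8, Adamts15, Adamts16 and Adamtsl2 passed the minimum although their mean in control cells was under 0.5 FPKM. Among the other 26 tested members 12 were called higher, 8 lower and 6 were not called. The groups of libraries did not overlap for 16 tested members that were higher and 8 that were lower, against 25.5% and 36.8% of all genes tested. A call with a change of at least 1 was made for 7 members higher and for 1 lower (Adamts3), against 4.17% and 3.35% of all genes tested. The 7 were Mmp11, Adamts8, Adamts15, Adamtsl1, Adamtsl2, Timp2 and Timp3. Of these, Adamts8, Adamts15 and Adamtsl2 passed the minimum with a control mean under 0.5 FPKM, which favours a large rise. They are also among the 16 higher members with no overlap.

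**Figure D1:**
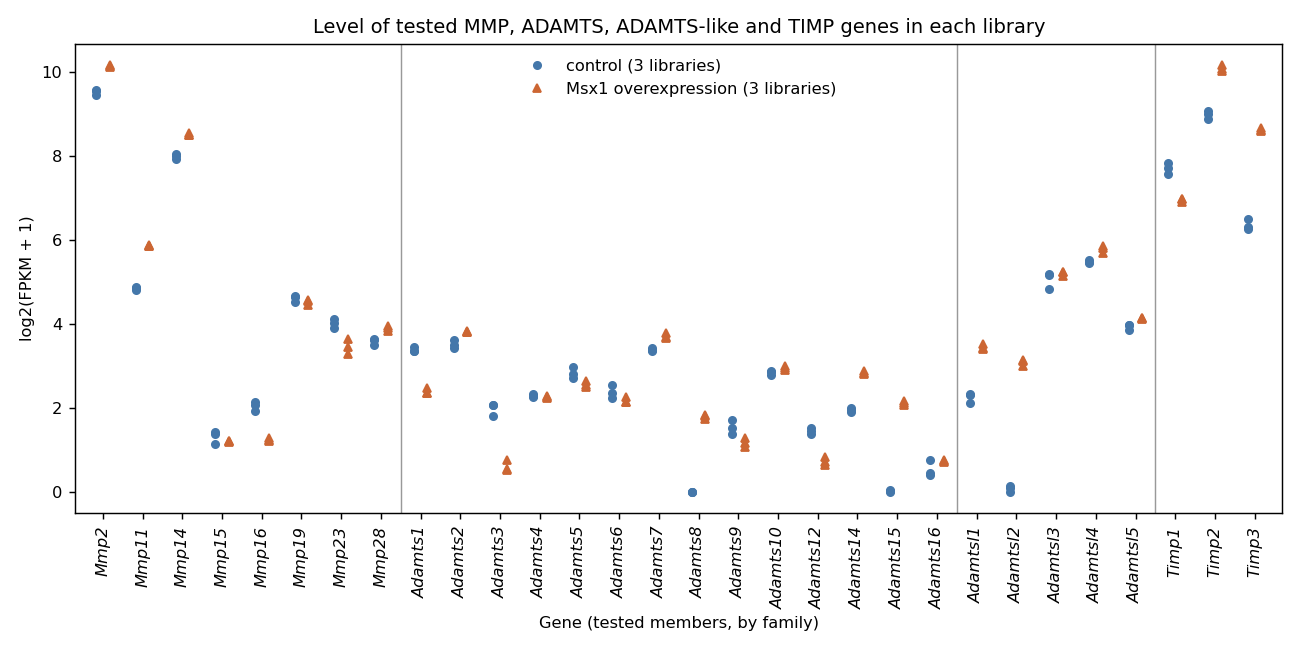
Level of each of the 30 tested genes in every library, as log2(FPKM + 1) on the vertical axis, with control libraries as circles and Msx1 libraries as triangles and vertical lines between the gene families. Mmp2, Mmp14, Timp1, Timp2 and Timp3 stand at the top, while most Adamts genes lie under 10 FPKM, and Adamts8, Adamts15 and Adamtsl2 lie at or near 0 only in the control libraries.

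Of the 15 Mmp genes below the minimum for testing, 10 lie side by side. On chromosome 9, 10 Mmp genes lie in a row between 7272514 and 7699585 (GRCm38): Mmp13, Mmp12, Mmp1b, Mmp3, Mmp1a, Mmp10, Mmp8, Mmp27, Mmp20 and Mmp7. This cluster holds the secreted collagenases, the stromelysins Mmp3 and Mmp10, matrilysin and the metalloelastase. Among these 10, 5 (Mmp12, Mmp1b, Mmp1a, Mmp20 and Mmp7) were listed at 0 in all libraries. RefSeq promoters (250 bases before the transcript start, GRCm38.p6) were at hand for 36 members, and the first start in the table was used for each gene. Of the 10 cluster promoters 7 held the AP-1 letters TGANTCA on either strand, 7 held TATAAA on either strand and 0 held the GC box GGGCGG on either strand. Inside the cluster, Mmp8, Mmp27 and the Mmp12 start used held none of these letters. Of second starts, not used for the counts, that of Mmp12 held the AP-1 letters and that of Mmp7 held none. Among low Mmp genes elsewhere, Mmp24 and Mmp25 held 3 and 2 GC boxes and no AP-1 letters, while Mmp21 held TATAAA and neither GC box nor AP-1 letters. Of the 30 tested members 18 had a promoter, and Mmp2, Adamts8 and Adamts15 were among those without one. Of the 18 tested members with a promoter 0 held TGANTCA, 2 held TATAAA and 16 held GGGCGG. Among the promoters of all 27025 genes with one, tested here or not, 6.87% held TGANTCA, 12.97% held TATAAA and 32.94% held GGGCGG. The shares among the promoters of all tested genes were not computed. The homeodomain core TAATTG on either strand, searched because Msx1 is a homeodomain protein, was found in 2 cluster promoters, in 1 of the 18 tested members (Mmp14) and in 7.34% of all promoters. A match is a run of letters in a short window, not a bound site. The cluster promoters printed first, of the stromelysin gene Mmp3 and the collagenase gene Mmp13, show the AP-1 and TATA letters found in most of the cluster, and the others belong to the abundant or most changed members. Capitals mark any match to the 4 searched motifs, and each sequence runs 5′ to 3′ on the strand of the gene.
Mmp3 (chr9:7445572-7445821, plus strand): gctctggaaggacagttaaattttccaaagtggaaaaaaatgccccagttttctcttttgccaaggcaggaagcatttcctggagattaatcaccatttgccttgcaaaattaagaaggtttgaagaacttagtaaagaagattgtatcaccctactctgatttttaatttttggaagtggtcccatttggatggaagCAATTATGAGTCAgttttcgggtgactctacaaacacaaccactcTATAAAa
Mmp13 (chr9:7272264-7272513, plus strand): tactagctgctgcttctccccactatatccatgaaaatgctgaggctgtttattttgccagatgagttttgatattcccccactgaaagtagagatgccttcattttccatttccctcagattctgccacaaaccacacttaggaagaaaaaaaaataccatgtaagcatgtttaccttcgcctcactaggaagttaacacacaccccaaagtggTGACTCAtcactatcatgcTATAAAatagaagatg
Mmp14 (chr14:54431348-54431597, plus strand): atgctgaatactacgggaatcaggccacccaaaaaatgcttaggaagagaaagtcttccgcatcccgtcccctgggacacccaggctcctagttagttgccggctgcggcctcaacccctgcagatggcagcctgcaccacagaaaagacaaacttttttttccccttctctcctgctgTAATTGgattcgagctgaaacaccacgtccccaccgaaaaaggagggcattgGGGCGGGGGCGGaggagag
Mmp11 (chr10:75932503-75932752, minus strand): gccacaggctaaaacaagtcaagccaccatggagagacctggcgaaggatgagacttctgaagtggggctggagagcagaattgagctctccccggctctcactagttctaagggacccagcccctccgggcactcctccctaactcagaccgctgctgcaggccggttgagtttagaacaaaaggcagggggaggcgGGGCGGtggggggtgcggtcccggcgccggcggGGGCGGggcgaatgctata
Timp1 (chrX:20869916-20870165, plus strand): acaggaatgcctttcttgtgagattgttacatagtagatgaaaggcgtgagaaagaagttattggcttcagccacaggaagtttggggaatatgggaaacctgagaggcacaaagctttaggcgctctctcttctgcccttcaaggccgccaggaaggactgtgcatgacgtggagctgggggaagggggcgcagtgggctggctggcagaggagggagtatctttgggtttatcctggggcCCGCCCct
Timp2 (chr11:118355412-118355661, minus strand): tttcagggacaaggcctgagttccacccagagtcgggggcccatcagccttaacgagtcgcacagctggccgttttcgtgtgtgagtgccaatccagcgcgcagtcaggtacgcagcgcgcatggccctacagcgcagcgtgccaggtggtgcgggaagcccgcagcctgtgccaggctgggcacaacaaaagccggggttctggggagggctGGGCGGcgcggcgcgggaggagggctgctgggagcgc
Timp3 (chr10:86300162-86300411, plus strand): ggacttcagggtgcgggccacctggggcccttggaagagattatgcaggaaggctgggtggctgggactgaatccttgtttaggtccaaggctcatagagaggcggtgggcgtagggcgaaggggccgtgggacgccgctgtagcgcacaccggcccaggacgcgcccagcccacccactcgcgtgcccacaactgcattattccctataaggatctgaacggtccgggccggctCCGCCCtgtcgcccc
Adamtsl2 (chr2:27079129-27079378, plus strand): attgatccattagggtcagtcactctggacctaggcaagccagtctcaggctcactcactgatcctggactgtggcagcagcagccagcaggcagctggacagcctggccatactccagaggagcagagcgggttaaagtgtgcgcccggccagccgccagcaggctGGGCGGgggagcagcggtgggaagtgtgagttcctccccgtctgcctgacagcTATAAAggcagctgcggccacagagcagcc
In Mmp3 the homeodomain core begins 52 bases before the start, directly before the AP-1 letters at 46 bases, with TATAAA at 7 bases. Mmp13 holds AP-1 letters that begin 35 bases and TATAAA that begins 16 bases before the start. In Mmp14 the GC boxes begin 19 and 13 bases before the start and the homeodomain core 71 bases before it. Mmp11 holds GC boxes that begin 52 and 19 bases before the start. Timp1, which was called lower, and Timp2 and Timp3, which were called higher, each held 1 GC box, beginning 8, 37 and 15 bases before the start. None of these 3 Timp windows held the AP-1, homeodomain or TATA letters. Adamtsl2 held a GC box at 83 bases and a TATA box at 30 bases before the start.

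The gelatinase Mmp2 and the membrane-type enzyme Mmp14, the most abundant proteases of the group, rose by similar modest amounts. Mmp2 read 698, 759 and 744 FPKM in control and 1111, 1121 and 1135 FPKM in Msx1 libraries. The groups did not overlap, and Mmp2 was 1.53-fold higher (log2 change 0.61, SE 0.07, adjusted p = 1.52e-04). It ranked 35th of all 24809 genes by its mean over the 6 libraries. Mmp14, which activates the pro-form of MMP2 and cleaves collagen at the cell surface, read 243, 253 and 261 FPKM against 362, 373 and 362 FPKM. It was 1.45-fold higher (log2 change 0.54, SE 0.06, adjusted p = 1.04e-04), again with no overlap.

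Mmp11, the stromelysin that furin-like convertases activate inside the cell, had the largest log2(FPKM + 1) rise of the 8 tested Mmp genes. It read 26.9, 27.9 and 28.4 FPKM in control and 57.6, 56.4 and 56.4 FPKM in Msx1 libraries. It was 2.05-fold higher (log2 change 1.01, SE 0.05, adjusted p = 1.24e-06). Mmp28, encoding the secreted protease epilysin, read 10.3, 11.4 and 11.3 FPKM against 14.05, 13.3 and 14.4 FPKM, 1.27-fold higher (log2 change 0.31, SE 0.06, adjusted p = 0.00298). Each Msx1 library was above each control library for both genes.

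Mmp16, a membrane-type protease like MMP14, and Mmp23, a protease anchored in the membrane by its amino-terminal part, fell. Mmp16 read 2.78, 3.18 and 3.43 FPKM in control and 1.36, 1.31 and 1.45 FPKM in Msx1 libraries, 2.28-fold lower (log2 change -0.80, SE 0.08, adjusted p = 9.21e-05). Mmp23 read 16.4, 15.2 and 13.9 FPKM against 11.5, 8.72 and 9.97 FPKM, 1.51-fold lower (log2 change -0.55, SE 0.10, adjusted p = 0.00226). The membrane-type enzymes thus moved in different directions, Mmp14 higher and Mmp16 lower, and Mmp15, another of them, was not called. Mmp15 read 1.69, 1.596 and 1.22 FPKM against 1.33, 1.26 and 1.33 FPKM, with a change of -0.11 (95% interval -0.32 to 0.09). Mmp19, which cleaves basement membrane components, read 21.9, 23.8 and 24.2 FPKM against 20.8, 22.9 and 22.1 FPKM and was not called (change -0.08, 95% interval -0.22 to 0.06). Mmp19 overlaps Tmem198b on the opposite strand (13.1 to 13.6 FPKM in control and 8.51 to 9.21 FPKM in Msx1 libraries), and Mmp28 overlaps 1700020L24Rik likewise (5.44 to 6.45 and 7.61 to 9.67 FPKM). In all, 4 of the 8 tested Mmp genes were called higher and 2 lower, beside 22.0% and 32.4% of all genes tested. The lower share was thus not above that of all genes.

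**Figure D2:**
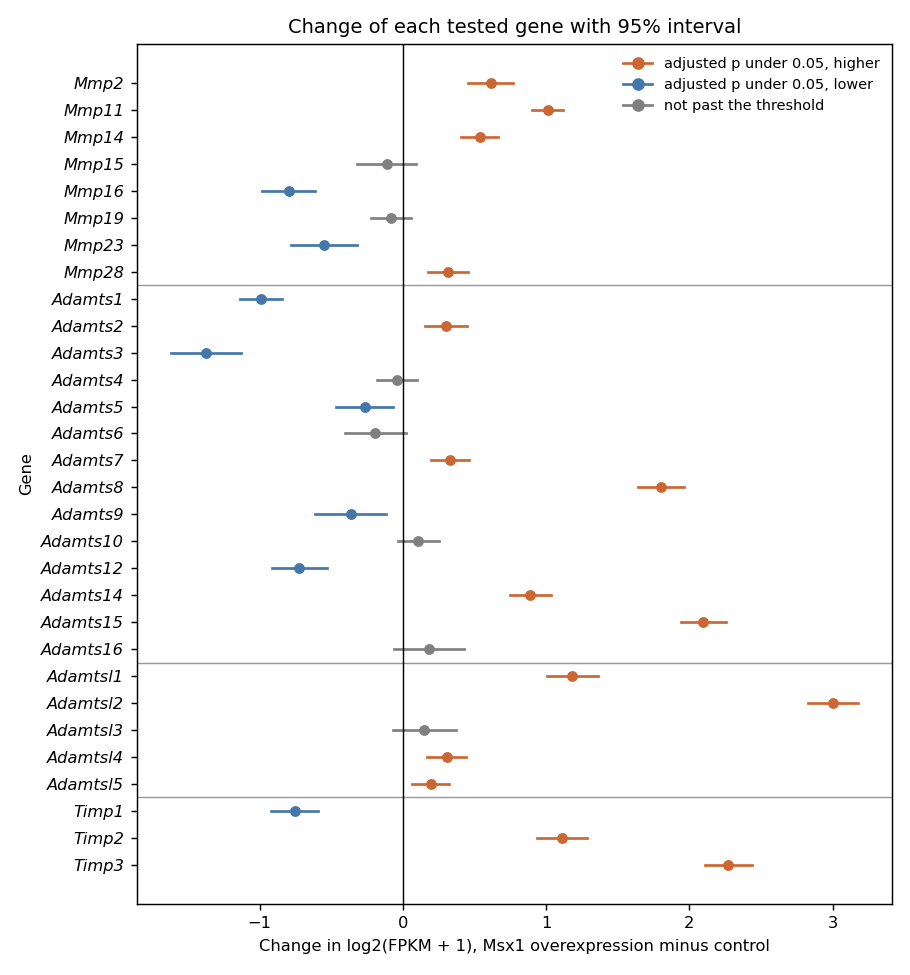
Change in log2(FPKM + 1), Msx1 overexpression minus control, for the 30 tested genes (points) with the 95% interval of limma (lines), with called higher in orange, called lower in blue and not called in grey. Adamtsl2 at 3.00, Timp3 at 2.27 and Adamts15 at 2.10 lie farthest to the right and Adamts3 at -1.37 farthest to the left.

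The inhibitors moved apart, with Timp2 and Timp3 higher and Timp1 lower. Timp3, whose protein binds to the matrix and inhibits MMPs, ADAM sheddases and aggrecan-cleaving ADAMTS proteases, read 75.4, 88.9 and 78.2 FPKM in control. In the Msx1 libraries it read 392, 401 and 387 FPKM, 4.87-fold higher (log2 change 2.27, SE 0.07, adjusted p = 1.61e-07). This was the 113th largest rise among the 12371 genes tested. Timp2, the partner of MMP14 in activating MMP2, read 532, 506 and 470 FPKM against 1041, 1077 and 1138 FPKM. It was 2.16-fold higher (log2 change 1.11, SE 0.07, adjusted p = 9.61e-06) and ranked 46th of all genes by mean level.

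Timp1, a soluble inhibitor known as a cytokine- and growth factor-responsive gene, went the other way. It read 227, 190 and 208 FPKM in control and 124, 119 and 125 FPKM in Msx1 libraries, 1.70-fold lower (log2 change -0.76, SE 0.07, adjusted p = 6.54e-05). All control libraries lay above all Msx1 libraries. Timp4 was below the minimum, at 0.0671, 0.132 and 0.123 FPKM against 0.106, 0.0563 and 0.0718 FPKM. Timp1, Timp3 and Timp4 each lie inside a synapsin gene on the opposite strand, and as use of strand is not stated, reads of such a pair may not be told apart. Syn1 was at 2.77 to 2.88 FPKM in control and 2.95 to 3.55 FPKM in Msx1 libraries, and Syn3 at 0 to 0.0167 and 0.0149 to 0.222 FPKM, both far below the Timp gene inside them. Syn2, which holds Timp4, was at 0.363 to 0.583 and 0.804 to 1.18 FPKM, above Timp4. Timp2 overlaps Cep295nl on its own strand, which was at 0.878 to 1.01 and 0.852 to 1.24 FPKM.

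Summed over each family, MMP and TIMP transcripts were at about the same level in Msx1 cells, which was not so in control cells. These sums are descriptions with no test. The Mmp sum was 1021, 1096 and 1088 FPKM in control and 1581, 1599 and 1605 FPKM in Msx1 libraries. The Timp sum was 835, 785 and 757 FPKM against 1557, 1597 and 1651 FPKM. The ratio of the Timp to the Mmp sum was 0.743 ± 0.0651 in control and 1.00 ± 0.0224 in Msx1 libraries (SD, n = 3 each). Mmp2 and Mmp14 together made up 92.3% ± 0.142 of the Mmp sum in control and 93.3% ± 0.118 in Msx1 libraries. The make-up of the inhibitors shifted more, with Timp1 at 26.3% ± 1.84 of the Timp sum in control and 7.66% ± 0.247 in Msx1 libraries, and Timp3 at 10.2% ± 1.15 and 24.6% ± 0.992. The ratio of Mmp14 to Timp2 was 0.503 ± 0.0492 in control and 0.337 ± 0.0165 in Msx1 libraries, and that of Mmp2 to Timp2 was 1.46 ± 0.139 and 1.04 ± 0.0358. All 51 members held 0.473% ± 0.0226 of a control library's FPKM and 0.858% ± 0.00837 of an Msx1 library's. These ratios compare transcript levels, not protein or activity.

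**Figure D3:**
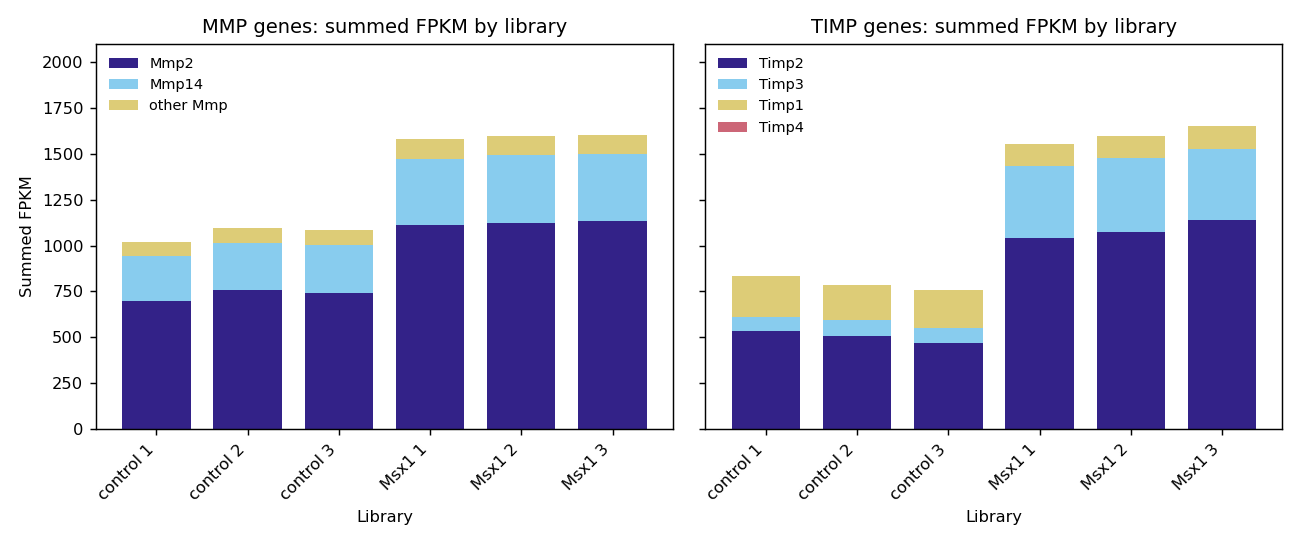
Summed FPKM of Mmp genes (left) and Timp genes (right) in each of the 6 libraries, as stacked bars split by gene. The Mmp bars rise from about 1021 to 1096 FPKM in control to 1581 to 1605 FPKM in Msx1 libraries with Mmp2 and Mmp14 in like shares, whereas in the Timp bars the Timp3 share grows and the Timp1 share shrinks.

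The hyalectanases, ADAMTS proteases that cleave versican, aggrecan and related proteoglycans, changed in both directions. Adamts15 read 0, 0.0315 and 0.0141 FPKM in control and 3.48, 3.22 and 3.33 FPKM in Msx1 libraries (log2 change 2.10, SE 0.07, adjusted p = 2.20e-07). Adamts8 was listed at 0 in the 3 control libraries and read 2.52, 2.57 and 2.35 FPKM in the Msx1 libraries (log2 change 1.80, SE 0.07, adjusted p = 5.17e-07). These genes are direct neighbours on chromosome 9, Adamts15 at 30899155 to 30922452 on the minus strand and Adamts8 at 30942562 to 30963838 on the plus strand (GRCm38), with 20109 bases and no annotated gene between them. Their start sites border that gap.

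Adamts1, Adamts5 and Adamts9 fell. Adamts1, a versican-cleaving protease, read 9.22, 9.83 and 9.17 FPKM in control and 4.501, 4.07 and 4.14 FPKM in Msx1 libraries, 2.22-fold lower (log2 change -0.99, SE 0.06, adjusted p = 7.10e-06). Adamts5, a main aggrecan-cleaving enzyme of mouse cartilage, lies 55043 bases from Adamts1 on chromosome 16, on the same strand. Adamts5 read 5.52, 6.88 and 5.95 FPKM against 5.24, 4.85 and 4.62 FPKM, 1.25-fold lower (log2 change -0.27, SE 0.09, adjusted p = 0.0303). Adamts9 read 1.57, 2.25 and 1.87 FPKM against 1.43, 1.08 and 1.22 FPKM, 1.53-fold lower (log2 change -0.37, SE 0.11, adjusted p = 0.0197). The control and Msx1 libraries did not overlap for these 3 genes, but for Adamts5 and Adamts9 the gap between groups was narrow. Both calls were lost without control replicate 2, without control replicate 3, without Msx1 replicate 2 and without Msx1 replicate 3, with adjusted p up to 0.212 for Adamts5 and 0.0858 for Adamts9 over 15 refits. Adamts4, the other aggrecanase, read 4.02, 3.898 and 3.78 FPKM against 3.86, 3.75 and 3.69 FPKM and was not called (change -0.04, 95% interval -0.18 to 0.10). Adamts20 had a value above 0 in 1 library only, 0.0252 FPKM in control replicate 1.

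The 3 proteases that remove the amino-terminal propeptide of fibrillar procollagens did not move together. Adamts14 read 2.85, 2.74 and 3.003 FPKM in control and 6.34, 6.13 and 6.004 FPKM in Msx1 libraries, 2.15-fold higher (log2 change 0.89, SE 0.06, adjusted p = 1.17e-05). Adamts2 read 9.73, 11.2 and 10.2 FPKM against 13.01, 12.9 and 13.2 FPKM, 1.25-fold higher (log2 change 0.30, SE 0.06, adjusted p = 0.00468). Adamts3, which also processes the lymphatic growth factor VEGF-C, read 2.47, 3.196 and 3.17 FPKM against 0.450, 0.680 and 0.433 FPKM, 5.66-fold lower (log2 change -1.37, SE 0.10, adjusted p = 1.87e-05). In each case the libraries of the groups did not overlap. In abundance Adamts2 led this trio in both groups, and the order of Adamts3 and Adamts14, close to each other in control cells, was Adamts14 far above Adamts3 in Msx1 cells.

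Of the pair that cleaves cartilage oligomeric matrix protein, Adamts7 rose and Adamts12 fell. Adamts7 read 9.45, 9.74 and 9.16 FPKM in control and 11.9, 12.7 and 11.7 FPKM in Msx1 libraries, 1.28-fold higher (log2 change 0.33, SE 0.06, adjusted p = 0.00178). With Adamts7 represented by its most abundant transcript the call was lost (log2 change 0.33, adjusted p = 0.208). Adamts12 read 1.61, 1.85 and 1.73 FPKM against 0.630, 0.785 and 0.549 FPKM, 2.64-fold lower (log2 change -0.72, SE 0.08, adjusted p = 1.82e-04). Adamts6 and Adamts10, proteases tied to fibrillin microfibrils, were not called, at changes of -0.19 (95% interval -0.40 to 0.02) and 0.11 (95% interval -0.04 to 0.25). Adamts6 read 3.69, 4.81 and 4.09 FPKM against 3.40, 3.80 and 3.40 FPKM. Adamts10 read 6.27, 6.29 and 5.87 FPKM against 6.66, 6.41 and 7.03 FPKM, so its libraries did not overlap although it did not pass. It was called higher after median-of-ratios scaling (adjusted p = 0.0465), with equal totals without Msx1 (0.0377) and with sample weights (0.0141). Adamts16 read 0.364, 0.699 and 0.328 FPKM against 0.624, 0.654 and 0.680 FPKM and was not called (change 0.18, 95% interval -0.06 to 0.43). In all, 5 of 14 tested Adamts genes were called higher and 5 lower, beside 22.0% and 32.4% of all genes tested. The lower count lies near this background. Among the higher calls, Adamts8 and Adamts15 passed the minimum with a control mean under 0.5 FPKM, which favours a higher call. After equal totals without Msx1 6 Adamts genes were higher and 3 lower.

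All 5 ADAMTS-like genes were tested, 4 were called higher and 0 lower, beside 22.0% and 32.4% of all genes tested. Of these 4, Adamtsl2 passed the minimum with a control mean under 0.5 FPKM, which favours a higher call. Adamtsl2, whose protein binds fibrillin and latent TGF-beta binding proteins, read 0, 0.0663 and 0.103 FPKM in control and 7.02, 7.79 and 7.61 FPKM in Msx1 libraries. Its log2(FPKM + 1) change was the largest of the 30 tested members and the 43rd largest rise among all genes tested (log2 change 3.00, SE 0.07, adjusted p = 6.44e-08). Adamtsl1, the matrix protein punctin, read 3.35, 3.98 and 4.02 FPKM against 10.4, 9.67 and 9.49 FPKM, 2.60-fold higher (log2 change 1.18, SE 0.08, adjusted p = 7.56e-06). Adamtsl4, which supports fibrillin microfibrils, was the most abundant of the 5 at 44.98, 43.5 and 42.8 FPKM against 57.2, 54.9 and 50.9 FPKM, 1.24-fold higher (log2 change 0.30, SE 0.06, adjusted p = 0.00267). With its most abundant transcript alone Adamtsl4 was not called (log2 change 0.41, adjusted p = 0.0566). Adamtsl5 read 14.8, 13.5 and 14.7 FPKM against 16.7, 16.6 and 16.2 FPKM, 1.15-fold higher (log2 change 0.19, SE 0.05, adjusted p = 0.0178). This call was lost without Msx1 replicate 1, without Msx1 replicate 2 and with the most abundant transcript alone (adjusted p = 0.0656, 0.0628 and 0.598). Adamtsl3 read 27.5, 35.4 and 34.6 FPKM against 36.9, 36.7 and 34.2 FPKM, with overlapping groups, and was not called (change 0.15, 95% interval -0.07 to 0.37).

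Of the 51 members, 22 had more than 1 transcript in the table, and how shared reads were divided among them is not stated. For Timp1 the 3 transcripts fell alike, NM_011593 from 118 ± 6.62 to 71.8 ± 5.97 FPKM, NM_001044384 from 82.1 ± 13.8 to 46.8 ± 2.67 FPKM and NM_001294280 from 7.98 ± 1.03 to 4.01 ± 0.407 FPKM (SD, n = 3 each). With transcripts fitted separately, limma gave adjusted p of 0.00116, 0.00625 and 0.0029. For Mmp23 the lower level lay in NM_011985, at 9.12 ± 1.47 and 3.99 ± 0.742 FPKM (log2 change -1.02, adjusted p = 0.00473). The other Mmp23 transcript, NM_001320235, was at 6.02 ± 2.37 and 6.06 ± 1.19 FPKM and was not called (adjusted p = 0.899). For Adamts3, NM_001081401 read 2.47, 3.19 and 3.17 FPKM in control and 0.448, 0.112 and 0.0467 FPKM in Msx1 libraries. The second Adamts3 transcript, NM_177872, was at most 0.0100 FPKM in control and at 0.0025, 0.568 and 0.386 FPKM in Msx1 libraries, so Msx1 replicates 2 and 3 assigned most of the little Adamts3 signal to it and replicate 1 did not. All of Adamts8 lay in NM_013906 and all of Adamts15 in NM_001024139. Mmp11 was 90.1% NM_008606 in control and 93.4% in Msx1 cells. The 13 transcripts of Adamts10 had group means of at most 1.18 FPKM.

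**Figure D4:**
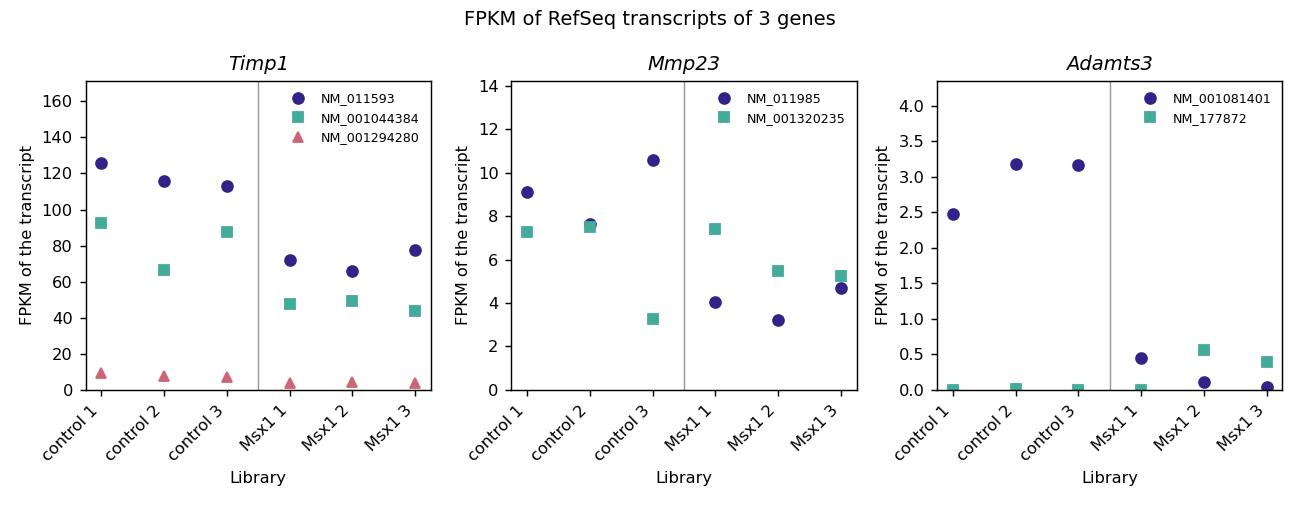
FPKM of each RefSeq transcript of Timp1, Mmp23 and Adamts3 in the 6 libraries, control left and Msx1 right of the grey line, with a colour and marker per transcript. All 3 Timp1 transcripts are lower in Msx1 libraries, while for Mmp23 only NM_011985 separates the groups.

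Members that were measured but not tested stayed close to 0 in both groups. The gelatinase Mmp9 read 0.286, 0.181 and 0.146 FPKM in control and 0.349, 0.503 and 0.507 FPKM in Msx1 libraries, far under Mmp2. The neutrophil collagenase Mmp8 read 0.0179, 0.159 and 0.0818 FPKM against 0.353, 0.419 and 0.579 FPKM, and the stromelysin Mmp3 read 0.171, 0.344 and 0.121 FPKM against 0, 0.0686 and 0.0264 FPKM. The groups did not overlap for these 3 genes. In a limma fit without the minimum they were called, Mmp9 (adjusted p = 0.0164) and Mmp8 (0.00528) higher and Mmp3 (0.0439) lower. That fit called 3005 genes higher and 4134 lower, of 24809 genes less the 6628 listed at 0 in all libraries. The collagenase Mmp13 read 0.0164, 0.278 and 0.0779 FPKM against 0.199, 0.154 and 0.231 FPKM, with overlapping groups. Mmp10, Mmp17, Mmp24, Mmp25, Mmp27, Adamts13, Adamts17 and Adamts20 were each at 0 to 0.109 FPKM in every library, with no overlap of the groups for Mmp24 (higher) and Adamts17 (lower). The share of all genes below the minimum whose groups did not overlap was not computed. Mmp1a, Mmp1b, Mmp7, Mmp12, Mmp20, Mmp21, Adamts18 and Adamts19 were listed at 0 in all 6 libraries.

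Among activators and cell-surface regulators of MMPs, the urokinase gene Plau rose and the serpin gene Serpine2 fell. Of 14 tested genes of this list 8 were called higher and 3 lower (median change 0.25), beside 22.0% higher and 32.4% lower of all genes tested (median change -0.07). Plau, the urokinase that turns plasminogen into plasmin, read 11.8, 12.7 and 11.8 FPKM in control and 67.5, 65.6 and 70.2 FPKM in Msx1 libraries (log2 change 2.39, SE 0.05, adjusted p = 3.95e-08). Serpine2, encoding an inhibitor of urokinase and thrombin, read 114, 122 and 124 FPKM against 50.4, 48.4 and 53.3 FPKM (log2 change -1.23, SE 0.06, adjusted p = 1.43e-06). Plasminogen itself (Plg) was not tested, with means of 0.0727 FPKM (control) and 0.0212 FPKM (Msx1). Plat, also of the plasminogen system, read 25.2, 27.7 and 27.5 FPKM against 21.1, 23.1 and 22.2 FPKM (log2 change -0.26, limma adjusted p = 0.00649). Of the 5 tested genes of that system in the list 2 were called higher and 3 lower. Plg, Plat, Furin and Reck were chosen after their values were seen. Furin, a convertase that activates membrane-type MMPs and MMP11, read 29.8, 27.9 and 28.5 FPKM against 40.1, 40.9 and 40.1 FPKM (log2 change 0.48, adjusted p = 8.66e-05). Reck, a membrane-anchored inhibitor of MMPs, read 3.49, 3.98 and 4.10 FPKM against 6.20, 6.36 and 6.45 FPKM (log2 change 0.60, adjusted p = 2.11e-04).

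Of 8 tested ADAM metalloproteases, relatives that shed membrane proteins, 0 were called higher and 5 lower. Their median change was -0.50, and of all genes tested 22.0% were called higher and 32.4% lower. Adam11, called lower, passed the minimum with an Msx1 mean of 0.421 FPKM, which favours a lower call. Adam9 was called lower although its groups of libraries overlapped. Over the refits 4 to 6 ADAM genes were called lower. Adam12, a protease of fusing myoblasts, read 4.28, 4.61 and 4.76 FPKM in control and 0.930, 0.735 and 0.999 FPKM in Msx1 libraries (log2 change -1.56, adjusted p = 2.25e-06). Adam19 fell from 13.2 ± 0.564 to 4.85 ± 0.394 FPKM and Adam8 from 2.66 ± 0.0803 to 0.738 ± 0.0583 FPKM (SD, n = 3 each). The sheddases Adam10 and Adam17 were not called.

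Of 16 tested matrix substrates of these proteases 8 were called higher and 6 lower (median change 0.19), beside 22.0% and 32.4% of all genes tested, so the lower count lies near the background. By class, 4 of 5 tested fibrillar collagen genes were lower and 1 higher, 3 of 6 basement membrane genes were higher and 1 lower, and the 4 tested genes of microfibrils, elastic fibres and glycoproteins were higher. Of these 4, Eln and Comp passed the minimum with a control mean under 0.5 FPKM, which favours a higher call. Vcan, the proteoglycan versican and a substrate of the hyalectanases, read 26.6, 36.7 and 34.1 FPKM in control and 3.33, 3.37 and 2.92 FPKM in Msx1 libraries (log2 change -2.98, SE 0.12, adjusted p = 5.25e-07). Eln, the elastin gene, read 0.0342, 0 and 0.0302 FPKM against 4.92, 4.54 and 5.04 FPKM (log2 change 2.51, SE 0.07, adjusted p = 1.05e-07). Col4a2, a basement membrane collagen cleaved by gelatinases, rose from 26.1 ± 2.48 to 92.0 ± 3.16 FPKM (SD, n = 3 each; log2 change 1.78, adjusted p = 6.40e-07).

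**Figure D5:**
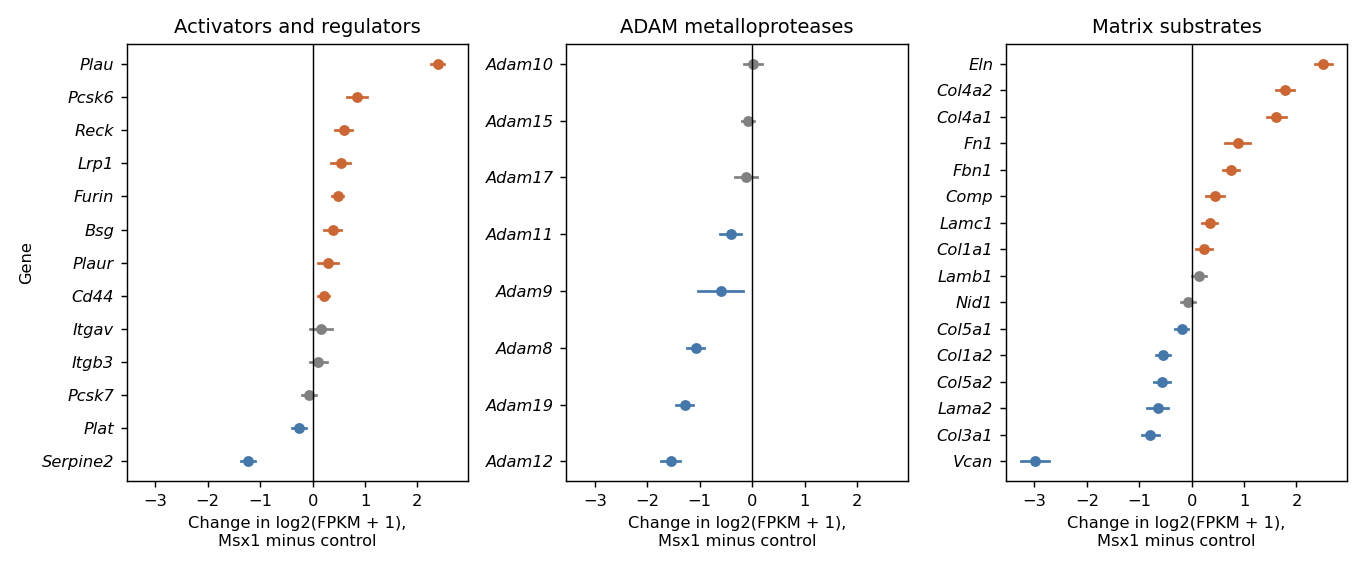
Change in log2(FPKM + 1), Msx1 overexpression minus control, with the 95% interval of limma for genes of 3 lists (13 of the 14 tested regulators, and all tested ADAM and substrate genes), with called higher in orange, called lower in blue and not called in grey. Plau (2.39) and Serpine2 (-1.23) mark the ends of the regulators shown, Adam12 (-1.56) is the lowest of the ADAM genes, and Eln (2.51) and Vcan (-2.98) are the extremes of the substrates.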

How the data were processed

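RNA of C2C12 cells was isolated with Trizol and made into libraries with a NEBNext Ultra kit, per the labels' protocols. The authors deposited FPKM, 1 row per RefSeq transcript and 1 column per library. Trimmomatic, HISAT2 and StringTie were used with GRCm38 (mm10), per the submitters' processing notes, with no version stated in the sources used here. Control columns, headed as vector, were matched to the control samples by their number.

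Of 38468 transcripts 38193 were given symbols from RefSeq (GRCm38.p6) and 156 from GENCODE, and FPKM were summed to 24809 genes. How reads shared by transcripts, overlapping genes or near-identical copies were divided, and whether strand was used, is not stated.

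The 12371 genes whose mean reached 0.5 FPKM were tested as log2(FPKM + 1) with limma 3.58.1 (R 4.3.3), with an intensity trend, no covariate and Benjamini-Hochberg adjustment. The script was tested on simulated data. All tested members are named with their values, and of each further list the 3 genes with the smallest adjusted p, except that 1 such result is not reported here. The members, gene lists and alternatives were chosen with earlier results of these data known. Depth is unknown: the steps of low FPKM values gave no unique depth (at best 42.9% to 47.7% of values within 0.1 of a whole multiple, and 40.7% to 45.3% at other depths), so whole reads were not recovered. Deposited FPKM summed to 390439 to 441835 per library.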

Additional observations from a re-analysis of the deposited data

How the results depend on the processing

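Over 15 refits (3 scalings, another pseudocount, 2 other minimums, sample weights, a replicate block, separate transcripts and each library left out in turn) 18 of the 23 called members kept their call and direction throughout, and no called member reversed. The count of members called higher was 12 to 17 and of members called lower 6 to 10, and 14 to 16 and 6 to 9 when a library was left out. Over all genes, 2019 to 3514 were higher and 2807 to 5256 lower over the 15 refits, and 2266 to 2847 and 3296 to 4243 without 1 library. Adamts5, Adamts9, Adamts7, Adamtsl4 and Adamtsl5 lost the call in at least 1 refit, all 5 when transcripts were fitted separately. In that refit each gene was represented by its most abundant transcript. Adamts5 and Adamts9 have 1 transcript each, so their changes stayed at -0.27 and -0.37. Only the standard error and the limma adjusted p of these 2 genes differed (adjusted p = 0.0908 and 0.0858). Adamts5 also lost the call after median-of-ratios scaling and with no minimum level, and both Adamts5 and Adamts9 with equal totals without Msx1. Adamts6, Adamts10, Adamts16 and Mmp19, not called as reported, passed with sample weights, and Adamts10 also under 2 of the 3 scalings (median-of-ratios and equal totals). Sample weights raised the calls over all genes, to 3514 higher and 5256 lower, beside 2718 and 4014 as reported. The Adamts16 call also appeared without control replicate 2, and that of Adamts6 without control replicate 1. The higher share of all calls was 40.4% with FPKM as deposited, 51.3% after median-of-ratios scaling, 45.8% after quantile normalization and 55.5% with equal totals without Msx1. A pseudocount of 0.1 enlarged the log2 changes of low genes, to 5.66 for Adamtsl2, 4.91 for Adamts15, 4.69 for Adamts8, -2.31 for Adamts3, -1.29 for Adamts12 and -0.57 for Adamts9. The Mmp23 change was -1.02 for its most abundant transcript alone. The replicate block changed no call of a member, with 15 higher and 8 lower, and gave 2692 higher and 4055 lower genes. Same-numbered libraries deviated together with correlations of 0.0553, 0.226 and 0.0366, and libraries of unlike number with correlations of -0.204 to 0.133. These values do not settle whether the numbers pair the samples, and the reported fit was unpaired. The change of Msx1 itself was 6.76 to 6.96. The cause of these shifts was not tested.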

Other observations

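The neighbours of the most changed members are given as values. Mymk, encoding the myoblast fusion protein myomaker, lies 7175 bases from Adamtsl2 on chromosome 2 and read 0.888 ± 0.307 FPKM (control) and 6.85 ± 0.483 FPKM (Msx1; SD, n = 3 each; log2 change 2.07, limma adjusted p = 3.67e-06). The next measured gene on that side, Slc2a6, was lower (2.75 ± 0.0800 and 1.85 ± 0.0474 FPKM; log2 change -0.40), and Cacfd1 beyond it was not called. On the other side Fam163b, 1398 bases away, was listed at 0. Around the Adamts15 and Adamts8 pair, Snx19, 432014 bases from Adamts15, was not called (11.2 ± 0.409 and 11.3 ± 0.289 FPKM), Zbtb44 was higher (2.78 ± 0.207 and 4.44 ± 0.258 FPKM; log2 change 0.53), and Aplp2 was higher (96.7 ± 8.67 and 172 ± 1.80 FPKM; log2 change 0.82). Next to Mmp11, Chchd10 was higher (0.676 ± 0.0770 and 2.29 ± 0.201 FPKM; log2 change 0.97), while Smarcb1 on the other side was not called (55.9 ± 1.37 and 55.8 ± 2.56 FPKM). Around Timp3 the nearest tested genes outside Syn3 lie 248539 bases or more away: Fbxo7 and 1810014B01Rik were not called, and Hsp90b1 was lower (337 ± 39.9 and 204 ± 8.12 FPKM; log2 change -0.71).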
